A study of Mus musculus with 6 samples.

Results

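Keratin-associated proteins are the matrix proteins that fill the space between the keratin filaments of the hair shaft. Their genes carry the symbol Krtap, a subfamily number and usually a member number. The genes studied here were all those whose probe set was annotated with a symbol of Krtap followed by a digit, 35 of 16331 probe sets tested. By subfamily number, 11 of them belonged to the glycine-tyrosine-rich class (numbers 6, 7, 19 and 22 on this array) and 24 to the sulfur-rich class (all other numbers). Membership and class followed from symbols and numbers alone, although the genes were chosen with earlier results of these data known.

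Dissected skin was profiled on Affymetrix arrays in 3 wild type and 3 mutant samples, described by the submitters as independent. The mutant carried the knockout allele Hoxc13tm1Mrc of Hoxc13, the gene for a homeodomain protein active in hair and nail formation. Every sample in both groups had the label male and the genetic background C57BL/6, and every title named 5 dpn. The contrast between the groups addresses how disruption of Hoxc13 alters the RNA content of skin. The labels give neither the zygosity of the mutant nor the source of each animal, and whole skin was used. The p-values therefore measure the spread between these samples.

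In the growing follicle, matrix cells leave the bulb, first make keratin filaments and then surround them with keratin-associated proteins before the fibre hardens. The sulfur-rich proteins are rich in cysteine and form disulfide bonds with the filaments and with each other. The glycine-tyrosine-rich proteins are small, hold little cysteine and are known mainly from the cortex of the shaft. In the mouse the genes lie in a few clusters, and neighbours within a cluster are often close in sequence.

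RMA values, on a log2 scale, had a median of 7.405 on every array. Hoxc13 itself read 9.63, 9.81 and 9.83 in wild type replicates 1, 2 and 3 and 8.95, 8.75 and 9.74 in the mutant replicates. Mutant replicates 1 and 2 were below all wild type arrays and mutant replicate 3 lay within their range. The mutant minus wild type difference was -0.61 (SE 0.23, limma adjusted p = 0.293), and -0.90 (adjusted p = 0.00114) without mutant replicate 3. The location of the probes within Hoxc13 is not known here, so this reading does not check the allele. Mutant replicate 3 stood apart, correlating at 0.989 and 0.990 with mutant replicates 1 and 2 across probe sets, against 0.997 between those arrays. Xist, an RNA made from the inactive X of female cells, read 11.15 to 11.67 on all arrays and the 6 Y-linked probe sets read 2.98 to 4.89, which goes against the male label of every sample. The skin label was borne out by its markers, with list means of 12.59 to 12.87 for basal epidermis (Krt5, Krt14, Krt15) and 12.97 to 13.24 for fibroblast genes over the 6 arrays. As a mark for low values, the 95th percentile of the mean levels of 35 olfactory receptor probe sets was used, 5.53 on the log2 scale and called the floor below. Each probe set has its own background, so the floor is only a common mark.

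The stretches just upstream of the annotated starts show what the promoters of these genes share. RefSeq promoters of GRCm38.p6 were given for 33 of the 35 genes, all but Krtap7-1 and Krtap12-1. Shown are the 120 bases before the annotated start, 5′ to 3′ on the gene's strand, with letter matches to TATAAA or TATATAA in capitals. The capitals begin between 30 (Krtap16-3 and Krtap31-1) and 73 (Krtap19-2) bases before the annotated start. Krtap19-1 and Krtap19-2 are the most similar pair, Krtap6-1 and Krtap6-5 are glycine-tyrosine-rich neighbours, and Krtap16-3 has a class that is in doubt. Krtap13-1 fell while the related Krtap13 read below the floor throughout, and Krtap31-1 did not pass the test.
Krtap19-1 (GRCm38.p6, chr16:88869411-88869530, - strand): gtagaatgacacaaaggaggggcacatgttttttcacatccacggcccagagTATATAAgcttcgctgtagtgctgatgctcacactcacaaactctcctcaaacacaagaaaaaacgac
Krtap19-2 (GRCm38.p6, chr16:88874270-88874389, - strand): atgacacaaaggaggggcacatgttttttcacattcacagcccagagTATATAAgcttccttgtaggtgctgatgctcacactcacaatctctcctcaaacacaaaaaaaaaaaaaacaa
Krtap6-1 (GRCm38.p6, chr16:89031579-89031698, + strand): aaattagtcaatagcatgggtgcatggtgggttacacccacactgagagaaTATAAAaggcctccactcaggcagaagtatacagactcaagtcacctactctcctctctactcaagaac
Krtap6-5 (GRCm38.p6, chr16:89047900-89048019, - strand): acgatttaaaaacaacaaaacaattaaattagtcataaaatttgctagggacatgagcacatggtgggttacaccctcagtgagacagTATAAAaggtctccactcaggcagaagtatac
Krtap16-3 (GRCm38.p6, chr16:88962874-88962993, - strand): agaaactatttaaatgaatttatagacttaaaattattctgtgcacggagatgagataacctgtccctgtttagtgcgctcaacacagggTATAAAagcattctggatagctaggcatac
Krtap13-1 (GRCm38.p6, chr16:88728742-88728861, + strand): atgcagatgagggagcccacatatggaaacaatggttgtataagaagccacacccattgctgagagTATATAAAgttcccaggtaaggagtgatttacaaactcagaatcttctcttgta
Krtap13 (GRCm38.p6, chr16:88751629-88751748, - strand): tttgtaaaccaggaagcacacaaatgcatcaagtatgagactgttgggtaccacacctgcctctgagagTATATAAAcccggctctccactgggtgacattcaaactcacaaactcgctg
Krtap31-1 (GRCm38.p6, chr11:99907800-99907919, + strand): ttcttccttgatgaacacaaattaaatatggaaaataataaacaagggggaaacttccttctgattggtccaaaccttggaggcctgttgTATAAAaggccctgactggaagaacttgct

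Of the 33 promoters, 32 held TATAAA or TATATAA on the gene's strand within 100 bases before the annotated start, against 4.46% of the 32851 promoters in the table. The exception was Krtap5-4, whose TATAAA lies at the annotated start. Counted on both strands of the whole window, from 250 bases before the start to 50 after, TATAAA was found in 26 of 33 promoters (13.6% of all promoters). TATATAA, which shares letters with TATAAA where both occur in a run such as TATATAAA, was found in 14 (3.24% of all). TCGTAAA and CAATAAA, letters that posterior Hox proteins bind in the test tube, were found in 0 of 33 on either strand (0.597% and 4.6% of all). GACGC, a core sequence bound by Foxn1, was found in 2 of 33 (27.2% of all), Krtap3-1 and Krtap14. A match is a description and not a site, and its absence says only that these letters are not in this window. The 250 bases before the start were 92.4% identical between Krtap19-1 and Krtap19-2, 63.2% between Krtap6-1 and Krtap6-5 and 62.4% between Krtap13 and Krtap13-1, against a median of 54.4% over the 528 pairs.

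Nearly the whole family read far lower in mutant skin. The limma test called 33 of the 35 genes lower and 0 higher at an adjusted p under 0.05. Over all probe sets it called 2.08%, with 1.6% lower and 0.478% higher. The median change was -6.87 on the log2 scale over the 35 genes and 0.0247 over all 16331 probe sets. In all 35 genes every mutant array lay below every wild type array, as in 7.82% of all probe sets. By class, 11 of 11 glycine-tyrosine-rich genes and 22 of 24 sulfur-rich genes were called. In whole skin, fewer shaft-forming cells and less of these RNAs per cell cannot be told apart.

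**Figure D1:**
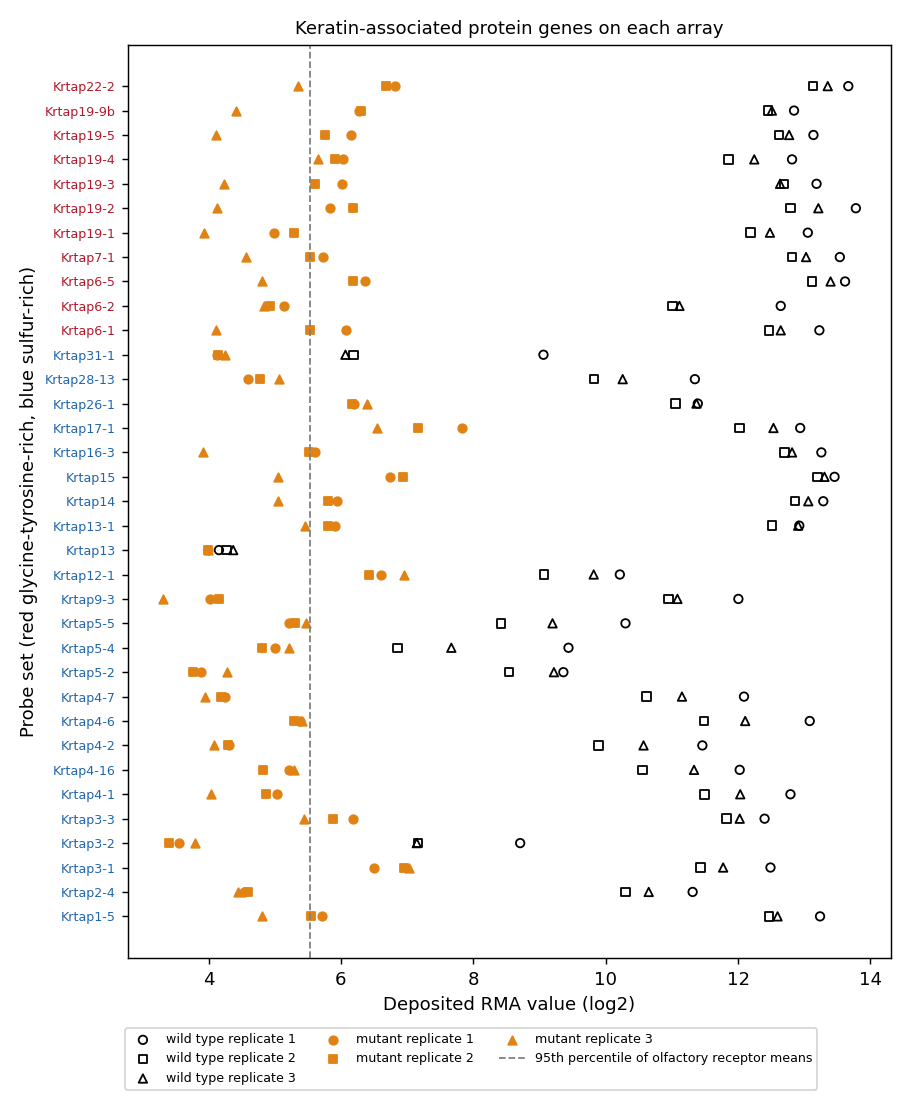
Deposited RMA value (log2, horizontal axis) of each of the 35 genes on the 3 wild type arrays (open symbols) and 3 mutant arrays (filled symbols), with symbol shape giving the replicate and the dashed line the floor of 5.53. Apart from Krtap13 the wild type values lie above the floor, whereas in mutant skin only 5 genes lie above it on all 3 arrays.

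Wild type skin carried a clear signal for all but 1 gene, with 34 of the 35 above the floor on all 3 wild type arrays. In mutant skin 5 genes were above it on all 3 arrays, 14 on some and 16 on none. For the 15 genes that were below it on every mutant array and above it in wild type skin, the change is only a bound. Setting the mutant level to the floor, Krtap19-1 was at least 132-fold lower, Krtap4-6 at least 104-fold and Krtap4-1 at least 95.5-fold. At the other end the bound was 4.41-fold for Krtap3-2, 5.50-fold for Krtap5-4 and 2.98-fold for Krtap31-1, which did not pass the test. Without wild type replicate 1 the bounds of Krtap5-4 and Krtap31-1 were 3.33-fold and 1.52-fold. Values below the floor have no meaningful order, so the ranking of fitted changes among strongly reduced genes is not a ranking of the loss of RNA. Probe sets also differ in how brightly they respond, so the levels of different genes have no common scale.

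The glycine-tyrosine-rich genes fell by similar amounts, from -7.88 to -6.44 with a median of -7.54. Their wild type means ran from 11.59 to 13.38 and their mutant means from 4.74 to 6.28. Values below are given in the order of replicates 1, 2 and 3. Krtap19-4 had the smallest adjusted p of the class. It read 12.81, 11.85 and 12.24 in wild type and 6.03, 5.92 and 5.66 in mutant skin, a change of -6.44 (SE 0.23, adjusted p = 6.18e-06). It was the only member of the class above the floor in all 3 mutant samples. Krtap7-1, the sole member of its subfamily here, read 13.54, 12.81 and 13.03 against 5.72, 5.53 and 4.56. Its change was -7.85 (SE 0.31, adjusted p = 1.1e-05). Krtap19-1 read 13.05, 12.19 and 12.48 against 4.98, 5.29 and 3.93, a change of -7.84 (SE 0.36, adjusted p = 2.32e-05). Its mutant values lay below the floor on every array.

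In several glycine-tyrosine-rich genes the mutant arrays differed more among themselves than the wild type arrays did. Krtap19-9b read 12.85, 12.45 and 12.51 against 6.27, 6.31 and 4.41 (-6.94, SE 0.47, adjusted p = 2.15e-04). Krtap19-2 read 13.78, 12.79 and 13.21 against 5.83, 6.18 and 4.13 (-7.88, SE 0.51, adjusted p = 1.63e-04). Krtap19-5 read 13.14, 12.62 and 12.77 against 6.16, 5.76 and 4.11 (-7.50, SE 0.47, adjusted p = 1.45e-04). These had the largest adjusted p-values of the class, and in each of them mutant replicates 1 and 2 were above the floor and mutant replicate 3 below it. Krtap22-2, another sole member of its subfamily, read 13.66, 13.13 and 13.35 against 6.81, 6.68 and 5.36 (-7.10, SE 0.36, adjusted p = 4.39e-05). Krtap6-5 changed by -7.60, Krtap19-3 by -7.55, Krtap6-1 by -7.54 and Krtap6-2 by -6.62. Of these, Krtap6-2 was the gene whose mutant values were below the floor throughout, at 5.13, 4.93 and 4.83. Krtap19-1 and Krtap19-2, the pair with the most similar promoters, changed by -7.84 and -7.88. The array may not tell the transcripts of close copies apart in any subfamily, and transcript and probe sequences were not compared here. The call held for all 11 genes, and 21 to 23 sulfur-rich genes were called, when any single array was left out. The share of all probe sets called lower was 0.9%, 0.955% and 0.821% without wild type replicates 1, 2 and 3, and 0.912%, 0.937% and 6.23% without mutant replicates 1, 2 and 3.

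**Figure D2:**
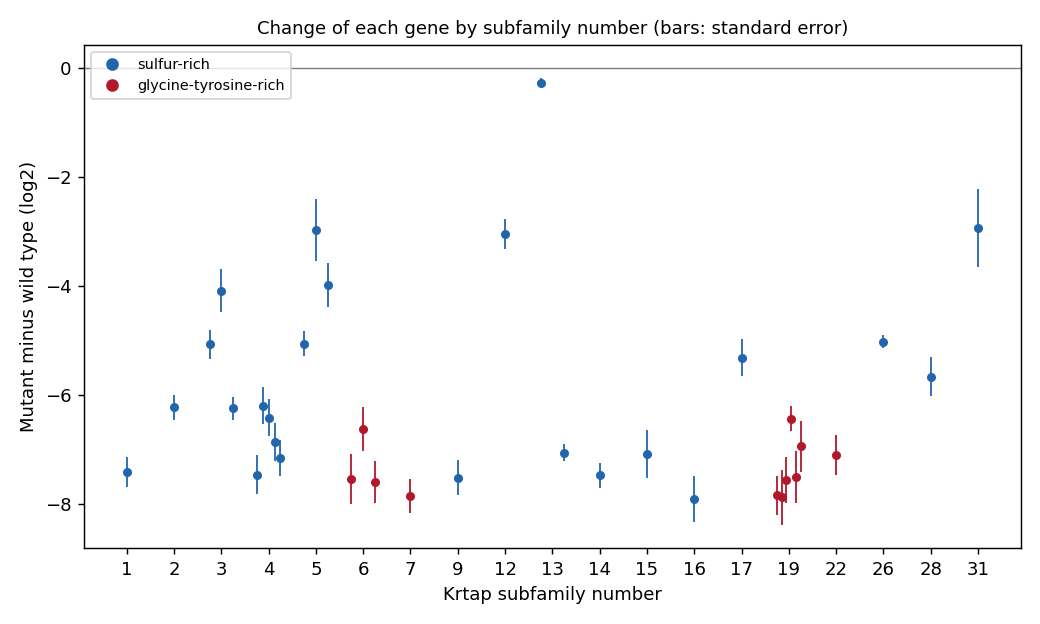
Change of each gene between mutant and wild type skin (log2, vertical axis, bars showing the standard error of the limma fit) by subfamily number (horizontal axis), in red for glycine-tyrosine-rich and blue for sulfur-rich numbers. Glycine-tyrosine-rich genes lie between -7.88 and -6.44, and sulfur-rich genes between -7.91 and -0.28.

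Sulfur-rich genes spread more widely, from -7.91 to -0.28 with a median of -6.21. The genes with the smallest adjusted p were on chromosome 16, close to the glycine-tyrosine-rich genes. Krtap13-1 read 12.92, 12.52 and 12.91 against 5.91, 5.80 and 5.46, a change of -7.06 (SE 0.15, adjusted p = 5.12e-07). Krtap26-1 read 11.39, 11.05 and 11.37 against 6.19, 6.17 and 6.39 (-5.02, SE 0.11, adjusted p = 5.16e-07). Krtap14 read 13.29, 12.86 and 13.06 against 5.94, 5.80 and 5.05 (-7.47, SE 0.23, adjusted p = 2.92e-06). Krtap26-1 stayed above the floor on all 3 mutant arrays, whereas Krtap13-1 and Krtap14 dropped below it in mutant replicate 3. Krtap15, which neighbours Krtap14 and carries the older name Pmg2, read 13.46, 13.20 and 13.30 against 6.73, 6.93 and 5.04 (-7.08, SE 0.45, adjusted p = 1.39e-04).

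The high-sulfur genes of subfamilies 1, 2 and 3, known from the cortex, lie together on chromosome 11. Krtap1-5 read 13.24, 12.47 and 12.60 against 5.72, 5.55 and 4.81 (-7.41, SE 0.27, adjusted p = 7.46e-06). Krtap2-4 read 11.31, 10.30 and 10.65 against 4.54, 4.60 and 4.44 (-6.23, SE 0.23, adjusted p = 7.46e-06). Within subfamily 3 the changes differed in size, at -6.25 for Krtap3-3, -5.07 for Krtap3-1 and -4.09 for Krtap3-2. Krtap3-1 read 6.50, 6.95 and 7.03 in mutant skin, above the floor on every array, while Krtap3-2 read 3.55, 3.40 and 3.79. For Krtap3-2 the wild type values were 8.71, 7.16 and 7.14, so its smaller change started from a reading nearer the floor.

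Genes of subfamilies 4 and 9, which encode ultra-high-sulfur proteins, fell to readings near or below the floor. The fitted changes of the 5 subfamily 4 genes were -7.46 (Krtap4-1), -7.16 (Krtap4-7), -6.87 (Krtap4-6), -6.42 (Krtap4-2) and -6.20 (Krtap4-16). Their mutant means ran from 4.13 to 5.36, below the floor on all 3 arrays in each of them, so only bounds can be read. These were at least 104-fold lower for Krtap4-6, 95.5-fold for Krtap4-1, 54.8-fold for Krtap4-16, 54.1-fold for Krtap4-7 and 34.6-fold for Krtap4-2. Krtap9-3 read 12.004, 10.95 and 11.08 against 4.02, 4.16 and 3.31 (-7.51, SE 0.32, adjusted p = 1.52e-05). Krtap17-1, at the end of the same cluster, read 12.94, 12.02 and 12.53 against 7.83, 7.17 and 6.54 (-5.32, SE 0.34, adjusted p = 1.50e-04). All 3 of its mutant arrays were above the floor.

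The 5 genes that lie outside the clusters of chromosomes 11 and 16 were all called. Subfamily 5, on chromosome 7, encodes ultra-high-sulfur proteins of the hair cuticle. The fitted changes of its genes were -5.06 (Krtap5-2), -3.98 (Krtap5-5) and -2.98 (Krtap5-4). Every mutant value lay below the floor, so only the bounds it sets can be read. They were at least 11.4-fold lower for Krtap5-2, 13.7-fold for Krtap5-5 and 5.50-fold for Krtap5-4. Krtap5-5 read 10.30, 8.42 and 9.20 against 5.21, 5.30 and 5.47 (SE 0.41, adjusted p = 0.00245). Krtap12-1, on chromosome 10, read 10.21, 9.07 and 9.82 against 6.60, 6.42 and 6.95 (-3.04, SE 0.28, adjusted p = 0.00128). This is the gene with the smallest change among those above the floor on all 6 arrays. Krtap28-13, on chromosome 1, read 11.35, 9.82 and 10.26 against 4.60, 4.78 and 5.06 (-5.66, SE 0.35, adjusted p = 1.29e-04). The mutant values of Krtap28-13 were below the floor too, so of these 5 genes Krtap12-1 alone has a measured change.

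The weakest results were those of Krtap5-4, Krtap31-1 and Krtap13. Krtap5-4 read 9.44, 6.86 and 7.67 against 5.00, 4.81 and 5.21 (-2.98, SE 0.57, adjusted p = 0.0461). Its call was lost without wild type replicate 3 (-3.14, adjusted p = 0.153), mutant replicate 1 (-2.98, adjusted p = 0.156) or mutant replicate 2 (-2.88, adjusted p = 0.173) in the limma fit. Krtap31-1 read 9.06, 6.19 and 6.07 against 4.13, 4.14 and 4.24 (-2.94, SE 0.72, adjusted p = 0.107), so wild type replicate 1 lay far above the other wild type arrays. Without wild type replicate 1 its change was -1.96 with adjusted p = 1.28e-04, and without mutant replicate 3 it was -2.97 with adjusted p = 0.0451. Krtap13 read 4.16, 4.27 and 4.37 against 3.99 on each mutant array (-0.28, SE 0.08, adjusted p = 0.154). All 6 values were below the floor, so wild type skin showed no clear signal for it to lose, unlike its relative Krtap13-1.

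Krtap16-3 was counted as sulfur-rich by its number, but its place in the genome and older name resemble those of glycine-tyrosine-rich genes. It read 13.26, 12.70 and 12.81 against 5.60, 5.51 and 3.92, a change of -7.91 (SE 0.42, adjusted p = 5.29e-05). In the RefSeq gene table it lies between Krtap19-9b and Krtap22-2. Of the glycine-tyrosine-rich genes, 6 carry an older Krtap16 name there, and in the sulfur-rich class Krtap16-3 alone does. Counted with the glycine-tyrosine-rich genes, a choice made after its values were seen, it gave 12 of 12 and 21 of 23 genes called and class medians of -7.55 and -6.20. Its protein sequence was not used here, so its class was not checked.

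The classes differed in their median change by -1.33, with the glycine-tyrosine-rich genes lower. This is a description with no test, because genes of a class are not replicates. Their ranges overlapped, with 8 sulfur-rich genes inside the glycine-tyrosine-rich range, 15 above it and Krtap16-3 just below. In mutant replicates 1, 2 and 3 the difference between the class medians was -0.72, -0.90 and -2.41, so mutant replicate 3 set much of its size, and without that array it was -0.86. With all values raised to the floor it was -1.77. Against the 6 sulfur-rich genes of chromosome 16 alone, a choice made after the values were seen, it was -0.47. Most sulfur-rich readings lay below the floor on every mutant array. Of the 11 glycine-tyrosine-rich genes, 9 were above it in each of mutant replicates 1 and 2 and 1 in mutant replicate 3. The median wild type mean was 12.84 for the glycine-tyrosine-rich and 11.30 for the sulfur-rich genes. The part of wild type level and of position in the difference was not tested.

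**Figure D3:**
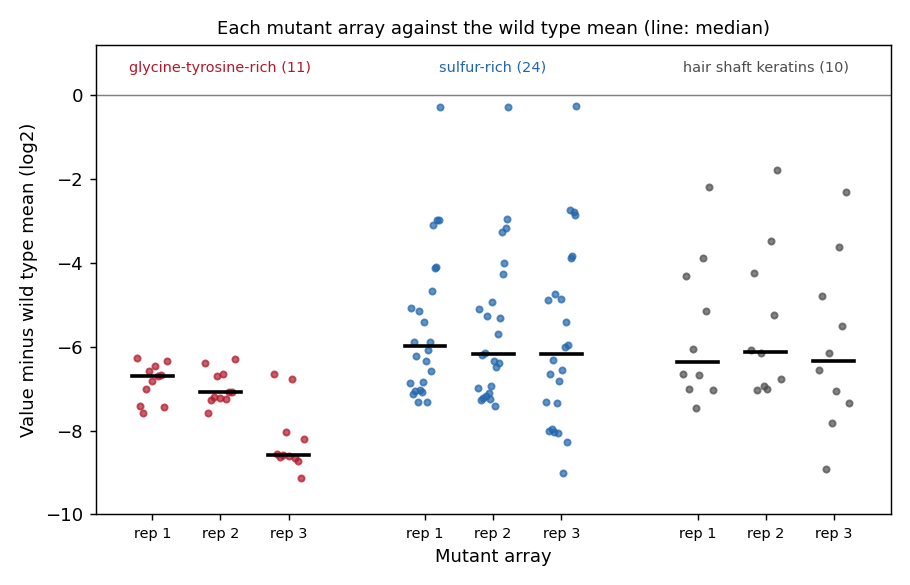
Value of each gene on each mutant array minus its wild type mean (log2, vertical axis), by mutant replicate (horizontal axis), for the 11 glycine-tyrosine-rich genes, the 24 sulfur-rich genes and the 10 measured hair shaft keratins, with black lines at the medians. The glycine-tyrosine-rich median is -6.71, -7.08 and -8.57 in mutant replicates 1, 2 and 3, while the sulfur-rich median is -5.99, -6.18 and -6.17.

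Mutant replicate 3 read lowest of the mutant arrays for many of these genes. Since values below the floor have no order, only genes with at least 1 mutant array above it are counted, 9 glycine-tyrosine-rich and 10 sulfur-rich. All 9 glycine-tyrosine-rich genes were lowest in mutant replicate 3, by a median of -1.58 against the mean of mutant replicates 1 and 2. Of the 10 sulfur-rich genes 7 were lowest there, by a median of -0.71 over the 10, and Krtap26-1, Krtap3-1 and Krtap12-1 were highest. Over all probe sets, with no such filter, mutant replicate 3 was the lowest mutant array in 37.5%. A gene kept only through mutant replicates 1 or 2 cannot be highest in mutant replicate 3. The choice of genes thus favours low readings there, and the counts are no test. The genes of chromosome 16 counted as sulfur-rich by number share the place of the glycine-tyrosine-rich genes. They were lowest in 4 of 5 cases, among them Krtap16-3, whose class is in doubt. Sulfur-rich genes of other chromosomes were lowest in 3 of 5. Krtap15 (-1.79), Krtap16-3 (-1.64) and Krtap17-1 (-0.96) had the lowest deviations among the 10, and Krtap12-1 (0.44) the highest. Because most of these readings in mutant replicate 3 were themselves below the floor, the sizes are those of the deposited values only.

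Many of these readings in mutant replicate 3 lay below the floor. In mutant replicates 1, 2 and 3, 9, 9 and 1 of the 11 glycine-tyrosine-rich genes were above it, and 10, 9 and 4 of the 24 sulfur-rich genes. Gene lists for other cells moved both ways on this array. Over all 16331 probe sets, this array was the highest mutant array in 7294 and the lowest in 6128. All 8 measured follicle regulators (Hoxc13, Foxn1, Msx2, Lef1, Dlx3, Gata3, Prdm1 and Foxq1) were highest there among the mutant arrays. So were all 6 measured inner root sheath keratins. The medians over the mean of the other mutant arrays were 0.51 and 0.38. The inner root sheath list averaged 13.12 to 13.23 in wild type and 12.24 to 12.77 in mutant skin, and the 4 melanocyte genes were also all highest in mutant replicate 3. All 5 suprabasal epidermis genes, 4 of 5 skeletal muscle genes and both adipocyte genes were lowest there. The skeletal muscle list averaged 10.37 to 11.64 in wild type and 10.94 to 12.12 in mutant skin. The part of tissue makeup in these differences was not tested.

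**Figure D4:**
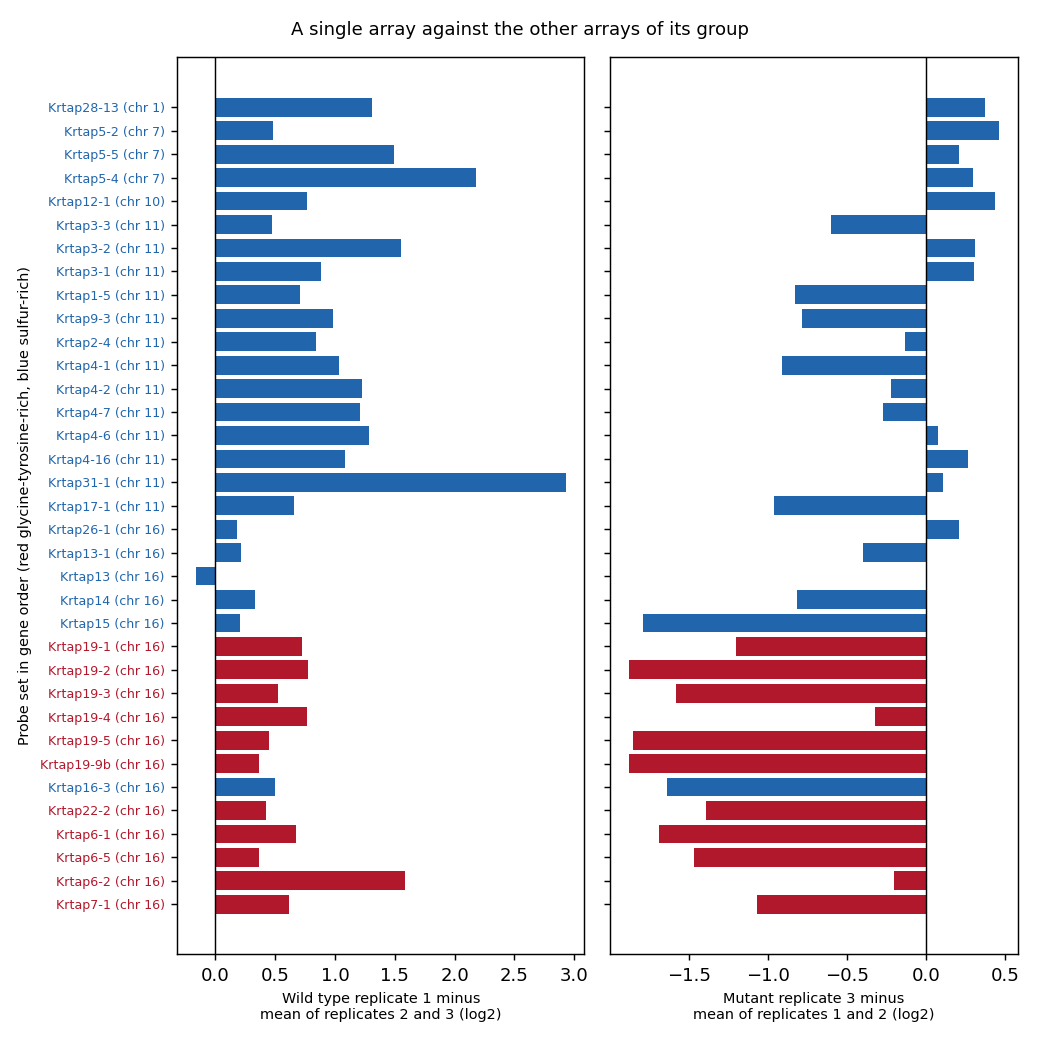
Difference (log2, horizontal axes) of wild type replicate 1 from the mean of wild type replicates 2 and 3 (left) and of mutant replicate 3 from the mean of mutant replicates 1 and 2 (right), for the 35 genes in the order of the RefSeq gene table by chromosome, in red for glycine-tyrosine-rich and blue for sulfur-rich genes. Wild type replicate 1 was the highest wild type array for 34 of 35 genes, and mutant replicate 3 was below the others for all 11 red genes, 9 of which had a mutant value above the floor.

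The wild type arrays were ordered alike for nearly every gene. Wild type replicate 1 was highest for 34 of the 35 genes, Krtap13 being the exception, and for 32.6% of all probe sets. The order replicate 1, then 3, then 2 was seen in 31 of 35 genes and in 16.5% of all probe sets. The excess of wild type replicate 1 over the mean of the others had a median of 0.72 over the 35 genes and -0.001 over all probe sets. It was 0.62 in the glycine-tyrosine-rich and 0.86 in the sulfur-rich class, and largest in Krtap31-1 (2.93), Krtap5-4 (2.18), Krtap6-2 (1.58) and Krtap3-2 (1.55). By chromosome the median was 0.44 for the 17 genes of chromosome 16, 1.03 for the 13 genes of chromosome 11 and 1.49 for the 3 genes of chromosome 7. Genes of 1 array share its RNA and labelling, so these counts describe single samples.

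Hair shaft keratins, which form the filaments around which these proteins are laid, showed the same array order less evenly. Their list mean was 11.69, 11.36 and 11.50 in wild type replicates 1, 2 and 3, and 7 of 10 measured genes were highest in replicate 1. All 10 fell, with a median change of -6.28, and Krt35 (-6.91, adjusted p = 3.32e-07), Krt82 (-5.30), Krt33b (-6.13) and Krt31 (-6.43) had the smallest adjusted p-values in the limma fit. With readings below the floor included, the median deviation of the 10 keratins in mutant replicate 3 was -0.30, with Krt33a at -1.91. Counted in the same way it was -1.46 for the 11 glycine-tyrosine-rich and -0.06 for the 24 sulfur-rich genes. Whether the family differed from the keratins was not tested.

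Of 12 measured genes for hardening and cross-linking the follicle's proteins, 2 fell in the limma fit and none rose, with a median of -0.27, and 4 had an unadjusted p under 0.05. Without mutant replicate 3, 7 were called lower and 2 higher. Over all 16331 probe sets that fit called 2316, of which 1018 (6.23% of all) were lower and the rest higher. S100a3, a calcium-binding protein rich in cysteine and abundant in the hair cuticle, read 13.13, 13.24 and 13.34 against 9.87, 9.76 and 10.36 (-3.24, SE 0.15, adjusted p = 2.85e-05). Tgm3, a transglutaminase of the shaft and sheath, read 9.04, 9.03 and 9.14 against 7.49, 7.54 and 7.89 (-1.43, SE 0.11, adjusted p = 6.00e-04). In both genes mutant replicate 3 was the highest mutant array, unlike the glycine-tyrosine-rich genes. Among the 8 follicle regulators Foxn1, the transcription factor altered in nude mice, fell (-1.21, SE 0.10, adjusted p = 8.78e-04), and the other 7 did not pass the limma test. Without mutant replicate 3, 6 of the 8 regulators, Hoxc13 among them, were called lower. Of 6 inner root sheath keratins, Krt26 (-1.90, SE 0.12, adjusted p = 1.72e-04) and Krt72 (-2.20, SE 0.30, adjusted p = 0.0106) fell, and the call of Krt72 was lost on leaving out wild type replicate 1, 2 or 3 or mutant replicate 2, while 3 of the 6 were called without mutant replicate 3. Of 5 suprabasal epidermis genes, Ivl, a protein of the cornified envelope, fell (-0.74). Among 3 basal epidermis, 5 fibroblast, 5 skeletal muscle, 4 melanocyte and 2 adipocyte genes the smallest limma adjusted p was 0.0968, for the melanocyte gene Tyr (-0.68). Without mutant replicate 3, 3 melanocyte genes were called lower, and 2 skeletal muscle, 1 fibroblast and 1 adipocyte gene higher. These stand beside the 2316 calls over all probe sets in that fit. The absence of calls in these lists, apart from basal epidermis, thus rests on that array.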

How the data were processed

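Total RNA of skin was labelled after oligo(dT)-primed one-cycle amplification, per the labels' protocols, which favours the 3′ ends of transcripts. The authors deposited log2 values made with RMA, per the submitters' processing notes (its version is not stated there). RMA gives all arrays nearly the same distribution, which hides any shift in total RNA, and compresses differences near background. Of 16395 probe sets, 64 control probe sets were left out. The array annotation gave 1 symbol for 15644, several for 0 and none for 687, and all 35 Krtap genes matched the RefSeq gene table of GRCm38.p6 by Entrez number.

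Groups came from the titles. Mutant and wild type arrays were fitted by lmFit and eBayes (limma 3.58.1, R 4.3.3; two-sided, no block), with Benjamini-Hochberg adjustment over 16331 probe sets at 0.05, after a test on simulated data. Errors are standard errors of that fit or ranges over arrays (n = 3 per group), a number that sets the precision. Genes given in full were, per class, the 3 with the smallest and 3 with the largest adjusted p, uncalled genes, sole members of a subfamily and Krtap16-3. From other lists up to 4 called genes were named. The genes and lists were chosen with earlier results of these data known. Promoters were aligned with Biopython 1.88, and figures drawn with matplotlib 3.10.9 in Python 3.11.15. Alternatives were a filter on low levels, other scalings, variance settings and array weights, the replicate block, the floor, other classings and leaving out each array.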

Additional observations from a re-analysis of the deposited data

How the results depend on the processing

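Direction was kept by every class median and every fitted gene under every alternative run. Over the alternatives, 430 of 449 refitted gene changes stayed on their side of the threshold, 15 lost their call and 4 gained it. Of the 15, 11 were lost without variance moderation, which called 7 glycine-tyrosine-rich and 15 sulfur-rich genes and 84 probe sets in all. The main count of 339 probe sets was 1880 with array weights, which weighted mutant replicate 3 at 0.234, and 151 to 2316 when single arrays were left out, 2316 being without mutant replicate 3. Deviations from the group means correlated at 0.036, -0.119 and -0.0873 between arrays of the same replicate number. With 3 arrays per group these values cannot decide whether such samples were paired, and the labels do not say. With the replicate block 197 probe sets, 11 glycine-tyrosine-rich and 22 sulfur-rich genes were called. The sulfur-rich median was -6.64 without probe sets of low mean level (18 genes left), -5.27 with values raised to the floor (class difference -1.77), -7.07 for its 10 genes of high wild type level, a choice that favours large changes by construction, and -7.07 for its 6 genes on chromosome 16. With single arrays left out it ranged from -6.42 to -5.89, the glycine-tyrosine-rich median from -7.91 to -6.97 and their difference from -1.66 to -0.86. The last 2 classings of sulfur-rich genes and that of Krtap16-3 were chosen after seeing the data. Classing by protein composition was not run, because no protein sequences were used here.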

Other observations

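Among the Krtap genes of chromosome 16 lie other protein-coding genes without a Krtap symbol, 38 in the RefSeq gene table, of which 6 had a probe set. They were looked at after the results above were known. Gm10229 and Gm10228, on either side of Krtap6-1, behaved like its neighbours. Gm10229 read 14.12, 13.11 and 13.57 in wild type and 7.04, 6.99 and 6.25 in mutant replicates 1, 2 and 3 (-6.84, SE 0.29, limma adjusted p = 1.52e-05). Gm10228 read 13.21, 12.09 and 12.43 against 5.07, 5.14 and 4.23 (-7.76, SE 0.33, limma adjusted p = 1.52e-05). Both were highest in wild type replicate 1 and lowest in mutant replicate 3. 2310061N02Rik fell less and in another array pattern, at 8.505, 9.065 and 8.999 against 6.82, 6.60 and 7.26 (-1.97, SE 0.20, limma adjusted p = 0.00248). The remaining 3 (2310034C09Rik, 2310057N15Rik and Gm9789) read at most 3.96 on any array, below the floor, and did not pass.

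The genes next to that cluster changed little or not measurably. Before it, Cldn8, a claudin of tight junctions, fell from 8.99 ± 0.05 to 8.19 ± 0.06 (SD, n = 3 each; -0.79, SE 0.07, limma adjusted p = 0.00111), while 2310079G19Rik (-0.43) and Grik1 (-0.07) did not pass. After it, Tiam1 (0.09), Sod1 (0.30) and Scaf4 (0.06) did not pass. On chromosome 11 none of the 25 genes without a Krtap symbol inside the cluster had a probe set here. The nearest measured genes on the side of Krtap3-3 were the keratins Krt23 (-0.36), Krt20 (0.13) and Krt12 (-0.09), which did not pass, and on the side of Krtap17-1 the hair keratins Krt33a (-7.65), Krt33b (-6.13) and Krt34 (-7.40), all called.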
